A study of Mus musculus with 6 samples.

Results

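The 10 genes described here encode enzymes that build purine and pyrimidine nucleotides from small precursors. They are Ppat, Gart, Paics, Atic, Impdh1 and Impdh2 for purines, and Cad, Dhodh, Umps and Ctps for pyrimidines. They were taken by symbol from a table of 24908 genes, which writes them in capitals (PPAT, GART, PAICS, ATIC, IMPDH1, IMPDH2, CAD, DHODH, UMPS and CTPS), and all 10 were found. Bulk RNA-seq was available from the ventral prostate (VP), the dorsolateral prostate (DLP) and the anterior prostate (AP) of 1 wild-type mouse (WT) and 1 littermate carrying a human c-MYC transgene (MYC). Both were FVB males of 12 weeks on the same purified diet, and the MYC mouse was heterozygous for the transgene, which the androgen-dependent ARR2Pb probasin promoter drives in prostate epithelium. Each lobe was dissociated to a cell suspension, and 1 poly(A)-selected library was made from each, 6 in all. With 1 animal per genotype there is no replicate, so no test between genotypes was possible, and genotype and individual mouse cannot be told apart.

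Purine synthesis assembles the ring on an activated ribose phosphate. Ppat makes the committed step, Gart and Paics catalyze several of the middle steps, Atic closes the ring to give inosine monophosphate, and Impdh1 and Impdh2 turn that product toward guanine nucleotides. In pyrimidine synthesis Cad carries out the opening steps as a single multifunctional protein, Dhodh oxidizes dihydroorotate in the inner mitochondrial membrane, Umps makes uridine monophosphate and Ctps makes CTP from UTP. Several of these genes, Cad among them, are textbook targets of MYC, which binds DNA with its partner MAX at the E-box CACGTG. In the prostate, luminal cells face the gland's lumen and secrete its fluid, basal cells lie beneath them, and the probasin promoter is active mainly in luminal cells.

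The promoter sequences of the genes were searched for this E-box, since the compared animals differ in MYC. RefSeq promoter windows (GRCm38.p6, 250 bases before to 50 bases after a start site) were found for 9 of the 10 genes, all but Dhodh, with 11 windows in all. CACGTG, which reads the same on both strands, was present in the windows of 3 of the 9 genes, Paics, Atic and Impdh2. Over the whole promoter table it was present for 8.09% of 27025 genes, and among the 9561 genes tested for expression that have a window, for 12%. The 250 bases before the start are shown for Atic and Impdh2, which hold the E-box (in capitals), and for Gart, which had the largest difference between the VP libraries and holds none. For Paics the 30 bases around the E-box are shown. Every sequence is given 5′ to 3′ on the strand of its gene.
Atic upstream (chr1:71556906-71557155, plus strand): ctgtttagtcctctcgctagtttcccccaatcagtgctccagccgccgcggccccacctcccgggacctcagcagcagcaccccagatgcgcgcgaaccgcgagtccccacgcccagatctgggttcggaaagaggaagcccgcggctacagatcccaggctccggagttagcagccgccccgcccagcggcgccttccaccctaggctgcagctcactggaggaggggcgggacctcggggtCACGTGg
Impdh2 upstream (chr9:108560186-108560435, plus strand): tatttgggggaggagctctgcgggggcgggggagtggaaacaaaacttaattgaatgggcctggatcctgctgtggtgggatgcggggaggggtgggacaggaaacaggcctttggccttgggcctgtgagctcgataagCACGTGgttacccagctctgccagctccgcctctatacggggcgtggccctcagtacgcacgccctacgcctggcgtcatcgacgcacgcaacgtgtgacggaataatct
Gart upstream (chr16:91646973-91647222, minus strand): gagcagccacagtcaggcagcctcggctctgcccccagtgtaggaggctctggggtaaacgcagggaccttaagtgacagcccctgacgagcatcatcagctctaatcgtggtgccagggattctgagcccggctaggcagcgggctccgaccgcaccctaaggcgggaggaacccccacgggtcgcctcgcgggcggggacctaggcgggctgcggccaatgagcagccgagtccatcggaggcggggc
Paics E-box (chr5:76951087-76951116, plus strand): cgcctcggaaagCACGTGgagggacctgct

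The E-box began 7 bases before the start of Atic, 110 bases before that of Impdh2 and 203 bases before that of Paics. Ppat and Paics lie head to head on opposite strands of chromosome 5, and their annotated genes overlap by 277 bases at their 5′ ends, so that the Paics E-box lies within the annotated Ppat gene. The Cad window ends 50 bases after a start site at chr5:31054780, which lies within the annotated gene (from 31054620). It does not hold these letters, and neither do the windows of Ppat, Gart, Impdh1, Umps and Ctps.

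Levels are given as deposited, in FPKM (fragments mapped per kilobase of transcript, scaled to library depth), a scale per length on which levels can be set side by side between genes of a library. The FPKM of a library summed to between 374085 and 483143, and its depth was estimated from the steps of low FPKM values at between 25.5M and 50.2M mapped reads. The lowest depth was that of WT AP. The 10 genes had between 101 and 5450 estimated reads in a library. Genotypes were compared by the log2 ratio of (FPKM + 1) of MYC to (FPKM + 1) of WT, called the log2 ratio. A gene was called at 2-fold, a log2 ratio of 1 or -1, and the share of the 12361 genes tested (mean over the 6 libraries of 1 FPKM or more) that passed is given as background. All 10 genes were among those 12361, with means between 2.73 and 61.8 FPKM. The 95% intervals of FPKM ratios come from estimated reads and cover counting error only, not the difference between animals.

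All 10 genes were higher in MYC VP than in WT VP, with log2 ratios between 0.62 and 1.44 and a median of 0.85. Over all genes tested the median in VP was 0.04, and 53.2% had a log2 ratio above 0. Gart, Atic, Cad and Impdh2 were at least 2-fold higher, 4 of the 10, against 6.88% of all genes. With equal sums of FPKM Gart and Atic alone passed (4.49% of all genes), Cad being at 0.88 and Impdh2 at 0.82, and with size factors Impdh2 did not pass (0.95). None was 2-fold lower, against 5.95% of all genes. At 1.5-fold all 10 were called, against 16.7% of all genes, but 6 with equal sums of FPKM (10.6% of all genes), an alternative chosen after seeing the data. In DLP all 10 log2 ratios were above 0, as were those of 53.5% of all genes, with a median of 0.28. That median was 0.14 with equal sums without the 20 highest genes and 0.10 with division by Krt8 and Krt18. None was called at 2-fold in DLP, where 6.46% of all genes were called higher and 3.39% lower, and Gart alone passed 1.5-fold (13.4% of all genes). In AP 6 of 10 were above 0, against 66.4% of all genes, and their median of 0.07 lay below the median of all genes, 0.13. None was called in AP, where 2.05% of all genes were called higher and 0.599% lower, and none passed 1.5-fold (7.53% of all genes). Of the 10 genes, the 6 purine genes were above 0 in all 3 lobes, against 29.9% of all genes. In AP the intervals of Ppat (0.918 to 1.24) and Impdh1 (0.924 to 1.18) included 1. With size factors only 3 of the 10 genes were above 0 in AP.

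**Figure D1:**
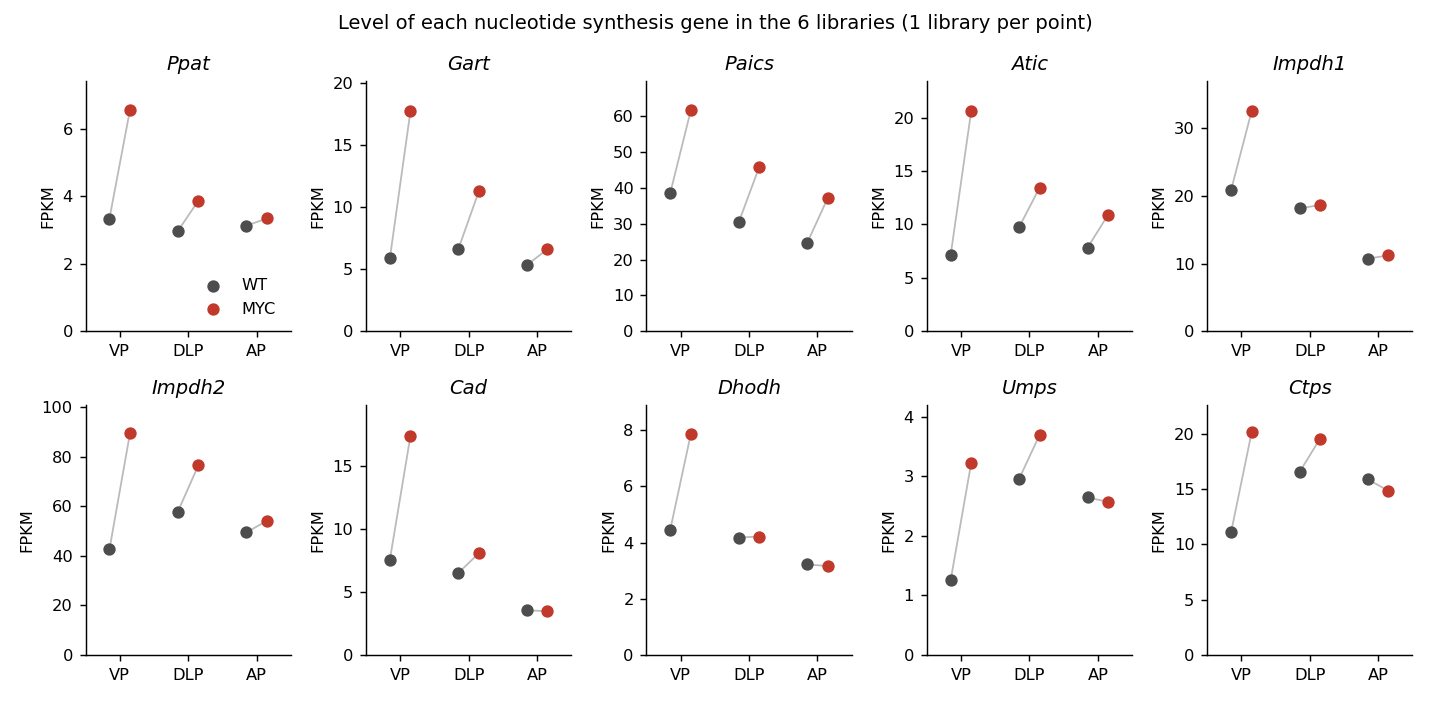
FPKM of each of the 10 genes (y axis, from 0) in the VP, DLP and AP of the WT mouse (grey) and the MYC mouse (red), 1 library per point, with a line joining the libraries of a lobe. In VP the red point lies above the grey one in every panel, from 1.56 times (Impdh1) to 3.01 times (Gart), while in AP the points of Cad, Dhodh and Umps nearly coincide.

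Gart (RefSeq gene 14450, chr16:91621395-91646972, minus strand), a multifunctional enzyme of the early and middle purine steps, had 5.895, 6.62 and 5.33 FPKM in WT VP, DLP and AP. In the MYC mouse it had 17.74 FPKM in VP, 11.3 in DLP and 6.615 in AP. The WT libraries lay close together and the MYC libraries did not, with MYC AP at the level of WT DLP. The FPKM ratio of MYC to WT was 3.01 in VP (interval 2.77 to 3.27), 1.71 in DLP (1.56 to 1.87) and 1.24 in AP (1.1 to 1.41). Its log2 ratios were 1.44, 0.69 and 0.27, and that of VP exceeded those of 97.0% of all genes tested.

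Atic (gene 108147, chr1:71557156-71579403, plus strand), which completes the purine ring, had 7.15, 9.745 and 7.821 FPKM in WT VP, DLP and AP. The corresponding MYC libraries had 20.62, 13.45 and 10.9 FPKM, all above the highest WT library. The FPKM ratio was 2.88 in VP (2.63 to 3.17), and 1.38 and 1.39 in DLP and AP. The log2 ratio was 1.41 in VP and 0.43 in each of the other lobes. The lobe with the lowest WT level of Atic was thus the lobe with its highest MYC level.

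Ppat (gene 231327, chr5:76913249-76951578, minus strand), the committed step, was the lowest of the purine genes in all 6 libraries. It had 3.337, 2.967 and 3.126 FPKM in WT VP, DLP and AP. In the MYC mouse it had 6.555, 3.869 and 3.339 FPKM, so that VP and DLP lay above the WT range and AP at its upper end. The FPKM ratio was 1.96 in VP (1.76 to 2.19) and 1.3 in DLP (1.14 to 1.49), and the log2 ratios were 0.80 in VP, 0.30 in DLP and 0.07 in AP. The interval of its FPKM ratio in AP, 0.918 to 1.24, included 1.

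Paics (gene 67054, chr5:76951302-76967509, plus strand), the head-to-head neighbour of Ppat and an enzyme of later ring steps, had nearly the same ratio of MYC to WT in each lobe as deposited. It had 38.59, 30.36 and 24.6 FPKM in WT VP, DLP and AP, and 61.59, 45.83 and 37.13 FPKM in the same lobes of the MYC mouse. The FPKM ratio was 1.6 in VP, 1.51 in DLP and 1.51 in AP, with intervals of 1.51 to 1.69, 1.41 to 1.62 and 1.38 to 1.65. Paics was the gene of the 10 with the highest log2 ratio in AP (0.58, above those of 92.1% of all genes) and the one with the smallest difference between VP and DLP, 0.08. That order of VP and DLP turned when libraries were scaled to equal sums of FPKM (0.43 in VP and 0.53 in DLP).

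The ratio of Paics to Ppat within a library was therefore not constant. It was 11.6 in WT VP and 9.4 in MYC VP (intervals 10.5 to 12.7 and 8.7 to 10.2), but 7.87 in WT AP and 11.1 in MYC AP (6.8 to 9.12 and 10.1 to 12.3). In DLP it was 10.2 in WT and 11.8 in MYC, with intervals that overlapped. MYC VP thus had the lower ratio of its lobe and MYC AP the higher one. Because these genes overlap on opposite strands, reads from the shared 277 bases could be split between them if strand was not used in counting, which the sources used here do not state.

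Impdh2 (gene 23918, chr9:108560436-108565577, plus strand) and Impdh1 (gene 23917, chr6:29200436-29216364, minus strand) encode isozymes of the step toward guanine nucleotides, with Impdh2 generally the form of dividing cells. Impdh2 was the highest of the 10 genes in every library, with 42.7, 57.93 and 49.51 FPKM in WT VP, DLP and AP and 89.57, 76.71 and 54.17 FPKM in MYC. Its FPKM ratio was 2.1 in VP (2.01 to 2.19), 1.32 in DLP (1.27 to 1.38) and 1.09 in AP (1.04 to 1.16), and its log2 ratios were 1.05, 0.40 and 0.13. WT VP had the least Impdh2 of the 6 libraries and MYC VP the most.
Impdh1 had 20.87, 18.13 and 10.72 FPKM in the WT lobes and 32.51, 18.65 and 11.21 FPKM in the MYC lobes. Its FPKM ratio was 1.56 in VP (1.45 to 1.67), and the intervals in DLP (0.943 to 1.12) and AP (0.924 to 1.18) included 1. Its log2 ratio in VP, 0.62, was the smallest of the 10. The isozymes share no 75-base stretch, the length of a read, in the protein-coding transcripts of GENCODE M1.

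The balance of the isozymes varied between the 6 libraries. Impdh2 was 2.05 times as high as Impdh1 in WT VP, 3.2 times in WT DLP and 4.62 times in WT AP. In the MYC mouse the ratios were 2.75, 4.11 and 4.83 in the same order. The counting intervals of the WT and MYC libraries, which leave out variation between mice, did not overlap in VP (1.92 to 2.18 and 2.61 to 2.9) or DLP (3.0 to 3.41 and 3.83 to 4.42), and overlapped in AP (4.14 to 5.17 and 4.48 to 5.22). In both mice the ratio was lowest in VP and highest in AP.

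**Figure D2:**
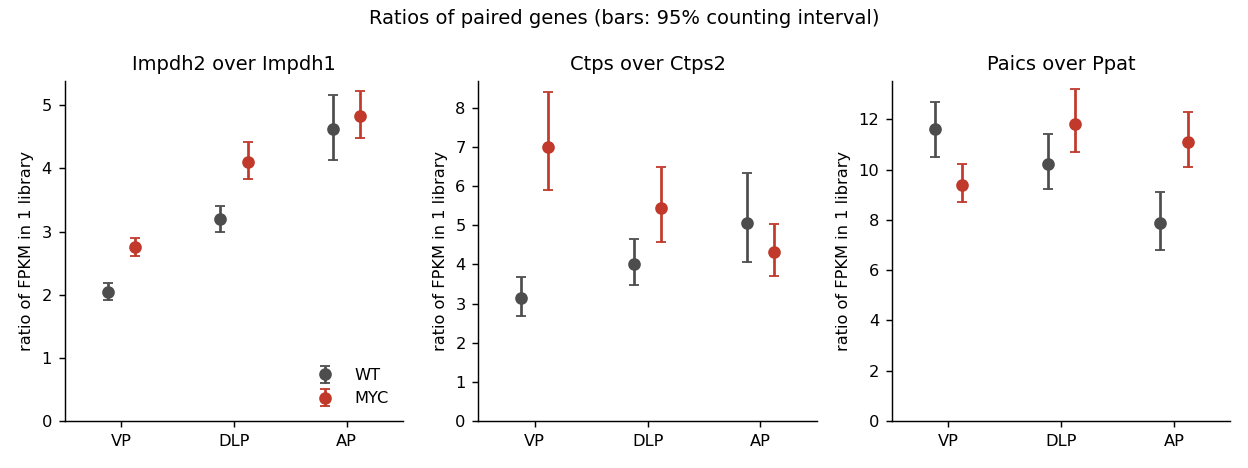
Ratio of the FPKM of paired genes within each library (y axis, from 0) by lobe, for WT (grey) and MYC (red), with bars for the 95% counting interval. Impdh2 over Impdh1 climbs from VP to AP in both mice, Ctps over Ctps2 reaches 7.01 in MYC VP against 3.13 in WT VP, and Paics over Ppat is lower in MYC than in WT in VP and higher in AP.

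Cad (gene 69719, chr5:31054620-31078479, plus strand), the entry to pyrimidine synthesis, had 7.562, 6.508 and 3.542 FPKM in WT VP, DLP and AP. The MYC libraries had 17.36, 8.069 and 3.469 FPKM. MYC VP was more than all others, and both AP libraries were the lowest. The FPKM ratio was 2.3 in VP (2.13 to 2.48), 1.24 in DLP (1.12 to 1.37) and 0.979 in AP (0.836 to 1.15). The log2 ratio of VP, 1.10, exceeded 94.5% of all genes tested, while that of AP was -0.02.

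Umps (gene 22247, chr16:33954782-33967038, minus strand), which makes uridine monophosphate, was the lowest of the 10 genes in WT VP. It had 1.259 FPKM there, 2.958 in WT DLP and 2.648 in WT AP, against 3.227, 3.7 and 2.57 FPKM in the MYC lobes. It was the only gene of the 10 whose highest library was not MYC VP but MYC DLP. The FPKM ratio in VP was 2.56 (2.16 to 3.05) but the log2 ratio only 0.90, because the pseudocount of 1 weighs on so low a gene. With a pseudocount of 0.1 Umps passed 2-fold (1.29) and the count in VP was 5 of 10, as it was without a pseudocount, an alternative chosen after seeing the data.

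Dhodh (gene 56749, chr8:109593244-109608699), the mitochondrial step, had 4.466, 4.18 and 3.222 FPKM in WT VP, DLP and AP and 7.865, 4.217 and 3.166 FPKM in MYC. Here MYC VP stood alone and the other libraries differed little between genotypes. The FPKM ratio was 1.76 in VP (1.51 to 2.06), and the intervals in DLP (0.827 to 1.23) and AP (0.769 to 1.26) included 1. Of 4594 distinct 75-base stretches of its annotated transcripts, 16 also occur in transcripts of Ocrl or Tmem69.

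Ctps (gene 51797, chr4:120539868-120570276, minus strand), which makes CTP, had 11.11, 16.54 and 15.88 FPKM in WT VP, DLP and AP and 20.13, 19.58 and 14.85 FPKM in MYC. WT VP was the lowest of the 6 libraries and MYC VP the highest. The FPKM ratio was 1.81 in VP (1.64 to 2), 1.18 in DLP (1.08 to 1.3) and 0.935 in AP (0.835 to 1.05). Its isozyme Ctps2 went the other way in VP, with 3.549 FPKM in WT and 2.871 in MYC, an FPKM ratio of 0.809 whose interval (0.652 to 1) reached 1. Ctps was thus 3.13 times as high as Ctps2 in WT VP (2.68 to 3.67) and 7.01 times in MYC VP (5.89 to 8.4). In DLP the ratio was 4.01 in WT and 5.43 in MYC, and in AP it was 5.05 and 4.31, each with overlapping intervals.

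**Figure D3:**
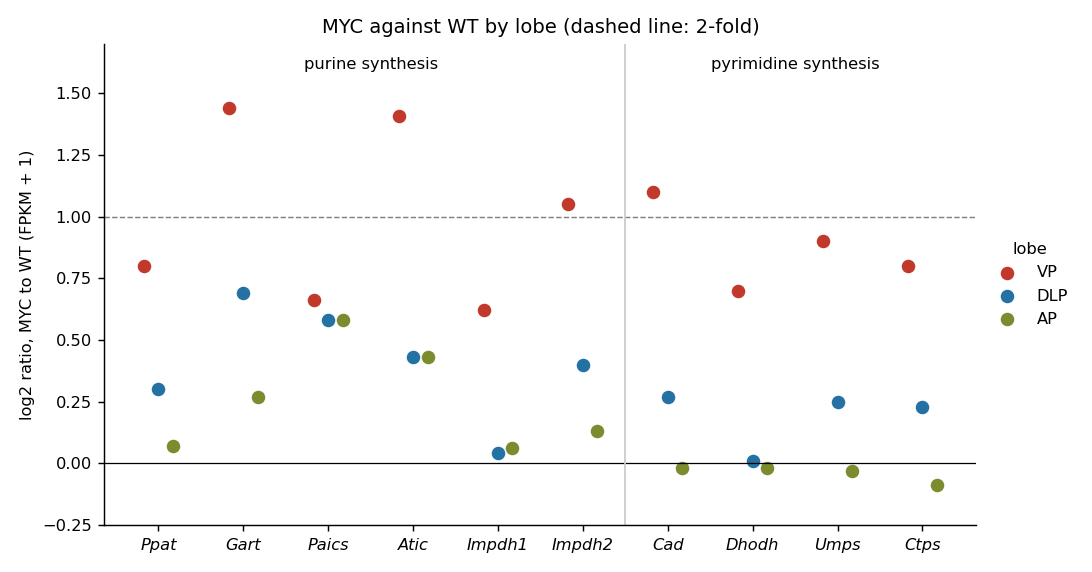
Log2 ratio of MYC to WT (y axis, on FPKM + 1) for the 10 genes in VP (red), DLP (blue) and AP (green), with a dashed line at 2-fold. The VP point is the highest of each gene, Gart (1.44), Atic (1.41), Cad (1.10) and Impdh2 (1.05) lie above the dashed line, and the AP points of the 4 pyrimidine genes lie at or just below 0.

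The log2 ratio was highest in VP for all 10 genes, against 34.4% of all genes tested, and followed the order VP, DLP, AP in 8 of 10, against 19.9%. The exceptions to the order were Atic and Impdh1, whose DLP and AP values differed by at most 0.02. Paics and Dhodh, counted as following it, had DLP and AP values that differed by only 0.00 and 0.03. With a pseudocount of 0.1, DLP was above AP in 7 of 10 (42.8% of all genes). Without the AP libraries, VP was above DLP in 10 of 10 (51.7% of all genes). With equal sums of FPKM both counts were 9 of 10, Paics being the exception, and the shares of all genes were 22.3% and 37.3%. With division by Krt8 and Krt18 both counts were 10 of 10, and the shares of all genes were 42.5% and 79.4%. The order of DLP and AP varied more with scaling, since DLP was above AP in 8 of 10 as deposited (43.2% of all genes), in 10 of 10 with size factors (50.5%) and in 1 of 10 when each library was divided by its Krt8 and Krt18 level (18.2%). Levels of a gene between lobes depend on scaling too, and their order was counted as deposited only. Division by Krt8 and Krt18 used factors of 1.786 for MYC VP, 0.8455 for MYC DLP and 0.6186 for MYC AP. As deposited, levels in the MYC mouse were ordered VP, DLP, AP in 9 of 10 genes, all but Umps, against 28.7% of all genes. MYC VP was the highest of the 6 libraries for the same 9 genes (26.8% of all genes). The row for Myc, which holds reads of both the mouse gene and, as far as they map to it, the transgene, had the same order, with 1696 FPKM in MYC VP, 586.1 in MYC DLP and 230.9 in MYC AP against 226.4, 200.6 and 230.0 FPKM in the WT lobes.

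**Figure D4:**
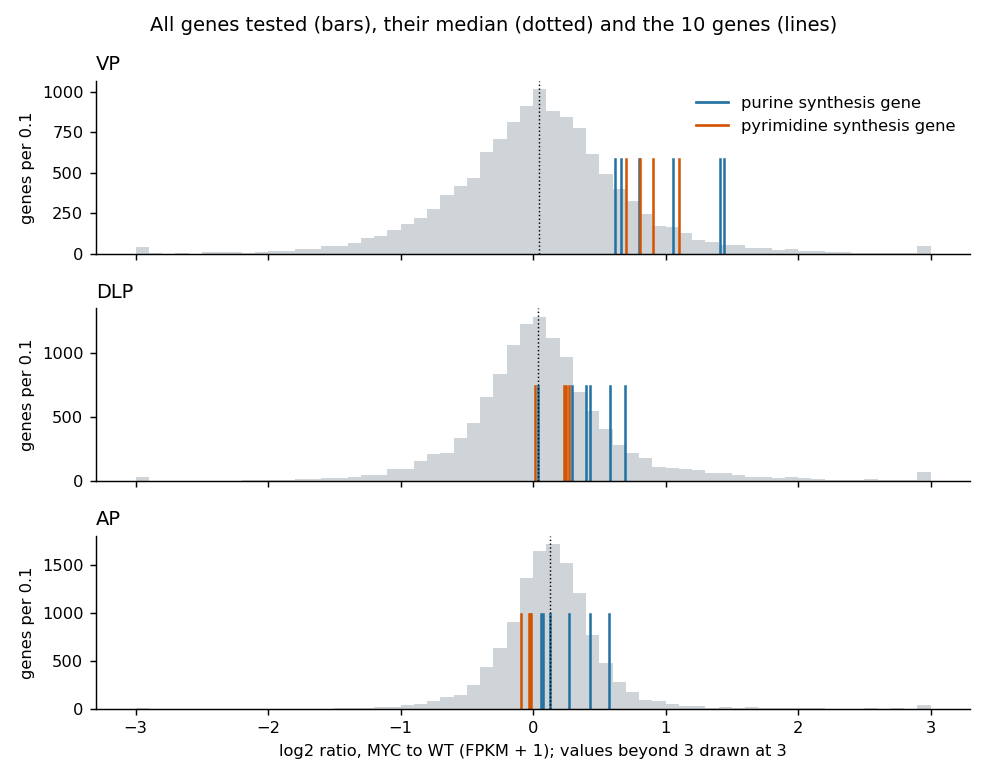
Histograms of the log2 ratio of MYC to WT over the 12361 genes tested (x axis in bins of 0.1, y axis the number of genes) in VP, DLP and AP, with a dotted line at their median and a vertical line for each of the 6 purine (blue) and 4 pyrimidine (orange) genes. The lines lie between 0.62 and 1.44 in VP, all to the right of the median, and between -0.09 and 0.58 in AP, on both sides of it.

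The purine and pyrimidine branches were alike in VP and differed slightly elsewhere. The median log2 ratio of the 6 purine genes was 0.93, 0.41 and 0.20 in VP, DLP and AP, and that of the 4 pyrimidine genes 0.85, 0.24 and -0.03. In AP all 6 purine genes were above 0 and all 4 pyrimidine genes below it, by at most 0.09, but with size factors 3 of the 10 were above 0 (49.5% of all genes), and with division by Krt8 and Krt18 all 10 were (81% of all genes). In DLP, Impdh1 and Dhodh were at 0.04 and 0.01 and turned below 0 under each of the 4 other scalings. In VP all 10 genes stayed above 0 under the 4 other scalings and the pseudocount of 0.1, with values between 0.35 and 1.57. Summed over the 10 genes, the FPKM were 142.9 in WT VP and 277.2 in MYC VP, 155.9 and 205.4 in DLP, and 126.4 and 147.4 in AP, and most of each sum was Impdh2 and Paics.

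Among the WT lobes alone, none of the 10 genes differed 2-fold between a lobe and the mean log2 level of the other lobes, where 12.5% of all genes did for VP, 2.65% for DLP and 9.52% for AP. The largest such differences were those of Cad and Impdh1, with -0.82 and -0.80 for AP, and of Umps, with -0.75 for VP. Ppat, Paics, Impdh1, Cad and Dhodh were highest in WT VP and the other 5 in WT DLP, against 32.1% and 35.3% of all genes. Paics, Impdh1, Cad and Dhodh followed the order VP, DLP, AP in WT, 4 of 10 against 26.3% of all genes. Umps, Ctps, Impdh2 and Atic were lowest in WT VP. As deposited, the genes thus did not share 1 order of WT lobes in the way that 9 of 10 shared the order of the MYC lobes.

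The other genes of nucleotide metabolism were counted by lists, to be read against the 6.88% of all genes 2-fold higher and 5.95% lower in VP, 6.46% and 3.39% in DLP, and 2.05% and 0.599% in AP. Of 9 other genes of purine synthesis, 1 was 2-fold higher in MYC VP and none lower, a share near that of all genes, and their median log2 ratio was 0.20. That gene was Adsl, which works between Paics and Atic and again on the way to AMP, with 7.284 and 17.18 FPKM in WT and MYC VP (1.13), 7.499 and 9.308 in DLP and 6.357 and 6.548 in AP. Pfas, the remaining ring-building enzyme, reached 0.95 with 2.23 and 5.22 FPKM. Prps1 and Prps2, which supply the activated ribose, had -0.25 and 0.15 in VP, and Gmps, which makes GMP, and Adss, which makes the adenylosuccinate that Adsl turns to AMP, had 0.38 and 0.19. Of 4 further pyrimidine and nucleoside diphosphate genes, Nme2, a nucleoside diphosphate kinase, was 2-fold higher in VP (125.0 and 278.5 FPKM, 1.15). These lists had no gene past 2-fold in DLP or AP.

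Salvage genes, which recycle bases and nucleosides, were mixed. Of 14 tested, 4 were 2-fold higher in MYC VP and none lower, with a median of 0.30 in VP and 0.06 in both other lobes. Uck2, a uridine-cytidine kinase, was at 10.85 FPKM in the VP of the WT mouse and 37.04 FPKM in that of the MYC mouse (1.68), but at 17.05 and 14.7 FPKM in AP. Tk1, the S phase thymidine kinase, had 1.352 and 5.11 FPKM in VP (1.38), Ada 1.494 and 4.424 (1.12), and Dck 1.009 and 3.13 (1.04). The main base salvage enzymes Hprt and Aprt had log2 ratios of 0.34 and 0.39 in VP and lay between 31.36 and 55.04 FPKM for Aprt and between 26.42 and 34.15 for Hprt over the 6 libraries.

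Genes of deoxynucleotide supply, needed for DNA synthesis, differed in DLP as well as in VP. Of 9 tested, 6 were 2-fold higher in VP and 4 in DLP, with medians of 1.17 and 0.94, against 0.26 in AP. Dctd, dCMP deaminase, had 1.085 and 11.96 FPKM in WT and MYC VP (2.64) and 0.9487 and 4.861 FPKM in DLP (1.59). Rrm2, the S phase subunit of ribonucleotide reductase, had 1.885 and 12.48 FPKM in VP (2.22) and 2.982 and 11.73 in DLP (1.68), but was already at 15.67 FPKM in WT AP. Dctpp1 had log2 ratios of 1.83 in VP and 1.37 in DLP, and Dtymk of 1.34 and 0.66.

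Breakdown genes did not share a direction in VP, where 4 of 10 were above 0 (53.2% of all genes). Of 10 tested, 2 were 2-fold lower in MYC VP and none higher, with a median of -0.11. In DLP 7 of 10 were above 0 (53.5% of all genes) and in AP 9 of 10 (66.4%). The medians of the breakdown genes in DLP and AP were 0.36 and 0.31, above those of the 10 synthesis genes. The 2 genes that were 2-fold lower in VP were Upb1 and Dpyd, enzymes of pyrimidine base breakdown. In WT and MYC VP, Upb1 had 2.368 and 0.403 FPKM (-1.26) and Dpyd 2.478 and 0.6315 FPKM (-1.09). Upb1 was also lower in MYC DLP, with 6.36 and 0.314 FPKM (-2.49). Nt5e, an ecto-nucleotidase, and Gda, guanine deaminase, were 2-fold higher in DLP (1.39 and 1.13), and Nt5e also in AP (1.62), while in VP they had -0.22 and -0.00.
The serine and folate genes that supply carbon units for the purine ring were divided. Of 10 tested, 4 were 2-fold higher and 1 lower in MYC VP, with a median of 0.11. Shmt1 (6.881 and 20.32 FPKM, 1.44), Mthfd1l (0.8443 and 3.811, 1.38) and Shmt2 (16.81 and 36.44, 1.07) were higher, and Aldh1l2 was lower (3.245 and 0.4091, -1.59). Mthfd1, the fourth, had 1.01. Mthfd2, the mitochondrial partner of Shmt2, went the other way, with 19.13 and 12.83 FPKM in VP (-0.54), and was past 2-fold lower in DLP (-1.11).

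**Figure D5:**
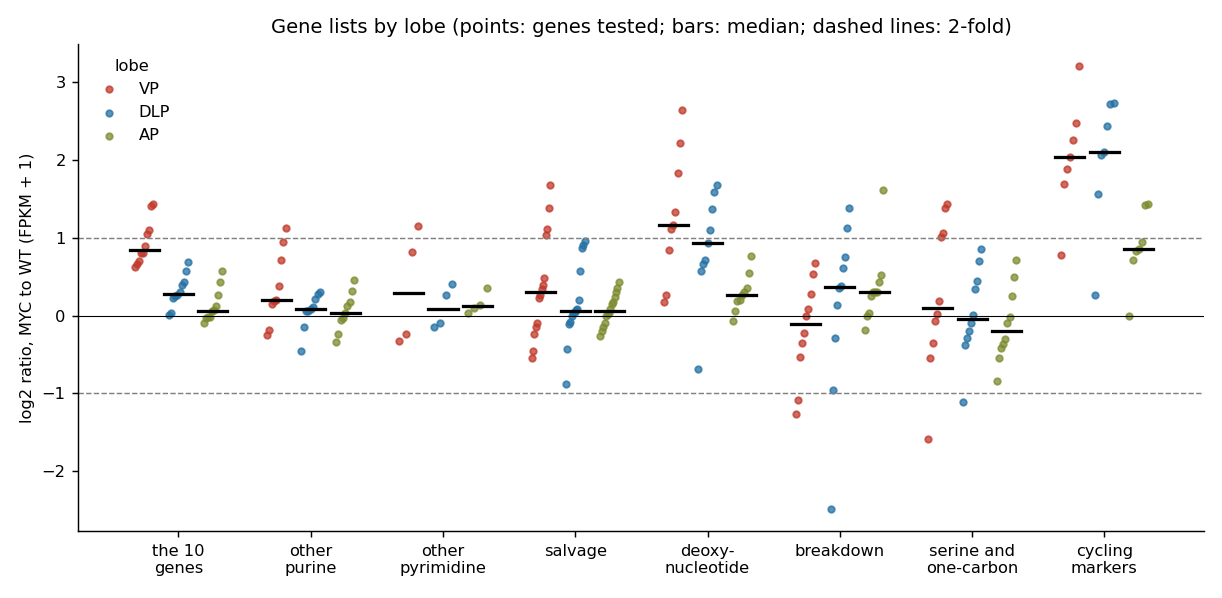
Log2 ratio of MYC to WT (y axis, on FPKM + 1) for the tested genes of 8 lists in VP (red), DLP (blue) and AP (green), with a bar at the median and dashed lines at 2-fold. The 10 genes fall from a median of 0.85 in VP to 0.28 in DLP, whereas the cycling markers have medians of 2.04 and 2.11 and the deoxynucleotide genes of 1.17 and 0.94.

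Markers of cycling cells and of other cell types moved with genotype too. Their counts are to be read against the share of all genes with a log2 ratio above 0. That share was 53.2% in VP, 53.5% in DLP and 66.4% in AP. All 7 cycling markers were higher in both MYC VP and MYC DLP, with median log2 ratios of 2.04 and 2.11 and Mki67 at 12.75 and 10.43 FPKM against 0.4838 and 0.7205 in WT. In AP the median of the cycling markers was 0.86. The cycling median of VP less that of DLP was -0.07 and less that of AP 1.18, and for the 10 synthesis genes these differences of medians were 0.57 and 0.79. Of 9 hematopoietic markers, 8 were higher in MYC VP and 9 in MYC DLP, with summed levels of 25.88 and 182.8 FPKM in the WT and MYC VP and 73.91 and 307.9 FPKM in DLP. Of 5 fibroblast markers, 4 were lower in MYC VP, with summed levels of 634.3 and 185.1 FPKM, and 3 in MYC DLP, with 1262 and 604.5 FPKM. Most of the DLP sum was Dcn (1155 and 453.9 FPKM), while Col1a1 (10.64 and 44.83 FPKM) and Col1a2 (40.59 and 70.51 FPKM) were higher in MYC DLP, and the list's median there was -0.07. In AP 4 of 5 fibroblast markers were higher in MYC, with a median of 0.46 and with Col1a1 (2.04) and Col1a2 (1.41) past 2-fold. All 5 smooth muscle markers were lower in MYC VP and DLP (medians of -0.88 and -1.18) and higher in AP (0.76). All 5 basal markers were lower in MYC VP (-0.60), where the interval of Krt5 (0.923 to 1.03) included 1, and higher in DLP (0.48). In AP they summed to 2212 FPKM in WT and 1181 FPKM in MYC, with a median of -0.21. There Krt17 (-1.44) and Krt14 (-1.19) were 2-fold lower and Trp63 (1.57) was 2-fold higher. The 5 luminal markers summed to 4142 and 3815 FPKM in VP and to 2079 and 2889 FPKM in DLP, where 4 of 5 were higher in MYC. Krt8 and Krt18 were themselves lower in MYC VP (-0.23 and -0.29). With division by them the VP median of the 10 genes was 0.94 and that of all genes tested 0.23, against 0.85 and 0.04 as deposited. Of 3 fat cell markers, Adipoq and Plin1 were listed at 0 in both VP libraries, and Fabp4 had 27.23 and 33.49 FPKM in WT and MYC VP (0.29). In MYC AP all 6 seminal vesicle genes were above their WT level, summing to 521.9 FPKM against 0.09664, and in MYC DLP they summed to 9.17 FPKM against 0.1048. The part of these other cells in the values of the 10 genes was not tested, and in bulk RNA more cells of a type and more RNA per cell cannot be told apart.

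The E-box and the size of the difference were set side by side as a description. The 3 genes with CACGTG in the window had log2 ratios in VP between 0.66 and 1.41, and the 6 genes with a window without it between 0.62 and 1.44. Over all genes tested with a window, the median log2 ratio in VP was 0.09 for 1145 genes with the E-box and 0.04 for 8416 without it, whereas the medians were 0.04 and 0.04 in DLP and 0.09 and 0.13 in AP. In DLP the 3 genes lay between 0.40 and 0.58 and the 6 genes between 0.04 and 0.69, and in AP between 0.13 and 0.58 and between -0.09 and 0.27. The ranges thus overlapped in each lobe, and in AP Paics and Atic lay above all 6 genes without the E-box.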

How the data were processed

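Bulk RNA-seq of 6 libraries, 1 per lobe and genotype, was analysed, grouped by the lobe and genotype in their titles. Single-end reads were aligned by the authors with STAR, and gene levels came from Cufflinks in the VIPER workflow, and the submitters' processing notes name the build mm10 and bcl2fastq 2.18. The deposited values are FPKM: they are not whole numbers, although the methods call them read counts and name DESeq2. No count model was run, and no p-value was given, each group being 1 library. The gene annotation is not given in the sources used here. Table symbols are in capitals and were matched without regard to case.

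Log2 ratios used a pseudocount of 1 and genes averaging 1 FPKM or more. Depth was estimated from genes with 1 exon and 1 transcript (GENCODE M1) below 0.3 FPKM, whose FPKM times length less 200 bases falls in steps, and reads per gene from FPKM, mean transcript length and depth. Ratio intervals are exact 95% Clopper-Pearson intervals of those reads. Counting error alone is covered. The calls were tried on libraries simulated from the WT values with counting noise alone. Of 200 genes changed 4-fold, 198 were called in VP, 197 in DLP and 199 in AP, and 0 of 12161 unchanged genes. Variation between animals was not simulated, so this outcome does not bear on it. The alternatives tried were other scalings (median-of-ratios size factors, sums of FPKM made equal with or without the 20 highest genes, division by the geometric mean of Krt8 and Krt18), a pseudocount of 0.1, a 1.5-fold threshold, and either no filter or one at 10 FPKM. The genes and lists were chosen with earlier results of these data known. From each list the genes past 2-fold in VP or DLP were named, at most 4 by the size of their VP log2 ratio. Pfas, Prps1, Prps2, Gmps, Adss, Hprt, Aprt, Mthfd1, Mthfd2 and Ctps2 were named after their values were seen. Positions and promoters are from RefSeq on GRCm38.p6, the assembly that mm10 denotes. Software was Python 3.11.15, scipy 1.17.1, numpy 2.4.6, matplotlib 3.10.9 and pandas 2.3.3.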

Additional observations from a re-analysis of the deposited data

Results flagged for a closer look

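None of the 10 synthesis genes went in opposite directions in different lobes beyond the counting interval of its FPKM ratio in each. Of the other genes of nucleotide metabolism and carbon supply named with values, together with Krt8 and Krt18, 7 did. Each had 1 library per lobe and genotype, and the difference was not tested for any of them. Among the cell type markers, not all of which were examined in this way, Col1a2 did so too. Its FPKM ratio was 0.714 in VP (0.672 to 0.76), 1.74 in DLP (1.67 to 1.81) and 2.69 in AP (2.58 to 2.8). Dpyd had a log2 ratio 1.35 lower in VP than in AP (a difference of -1.35) and 1.21 lower in DLP than in AP (-1.21). Nt5e was lower in MYC VP and higher in the other MYC lobes, with differences of -1.60 between VP and DLP and -1.84 between VP and AP. Mthfd1l was higher in MYC VP and MYC DLP and lower in MYC AP, with differences of 1.68 and 0.64. Shmt2, which supplies glycine and carbon units in mitochondria, had the same pattern, with differences of 1.49 between VP and AP and 0.87 between DLP and AP. Aprt was higher in MYC VP and lower in MYC AP, a difference of 0.65. Krt8 and Krt18, the keratins used for scaling, were higher in MYC DLP and lower in the other MYC lobes. The differences for Krt8 were -0.48 between VP and DLP and 0.30 between DLP and AP, and those for Krt18 were -0.51 and 0.51.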

How the results depend on the processing

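In VP the median log2 ratio of the 10 genes was 0.67 with equal sums of FPKM, 0.65 with equal sums without the 20 highest genes, 1.01 with a pseudocount of 0.1 and 1.02 without a pseudocount, against 0.85. The number at least 2-fold higher in VP fell from 4 to 2 under each scaling to equal sums, leaving Gart and Atic, was 3 with size factors (without Impdh2) and 5 with a pseudocount of 0.1 or none (with Umps), and was 10 at 1.5-fold. The 10 at 1.5-fold became 6 with equal sums and 5 without the 20 highest genes, alternatives chosen after seeing the data. In DLP the median was 0.10 when divided by Krt8 and Krt18, and 1 gene, Gart, passed 1.5-fold. In AP size factors gave a median of -0.06. The median over all genes tested, 0.04 in VP, became -0.15 (equal sums), -0.18 (without the 20 highest) and 0.23 (Krt8 and Krt18). Without a filter on low values 3.76% of all genes were at least 2-fold higher in VP and 3.03% lower, 3.85% and 1.82% in DLP, and 1.12% and 0.321% in AP. Leaving out each gene in turn kept the VP median between 0.80 and 0.90. No paired analysis was possible because each genotype is 1 mouse, whose 3 lobes are not replicates.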
